A study of Homo sapiens with 6 samples.

Results

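MIR17HG, the transcript that carries the miR-17-92 microRNA cluster, was followed together with the MYC and E2F transcription factors known to drive it and the partners of MYC. The 9 genes (MIR17HG, MYC, MYCN, MYCL, MAX, MXD1, MXD4, E2F1 and E2F3) were taken by symbol from the 58676 genes of the table, for their known roles. They were chosen with earlier results of these data known. In the knockdown libraries MYCN stood at 45.5% of its control mean, with no overlap between the groups, while MYC and MIR17HG overlapped. MXD4 lay above all 3 controls and E2F1 below all of them. Over all genes tested, 14.3% had both knockdown libraries above all controls and 13.6% below. None of the 9 genes passed the test across all genes.

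The samples were total RNA of a human line labelled HCC (hepatocellular carcinoma), grown in DMEM with serum, in 3 libraries labelled knockdown and 3 labelled control. Each knockdown library is titled as a sponge, an RNA with binding sites that take a microRNA up, whereas the title of the series speaks of miR-19a treatment, so the labels do not settle in which direction miR-19a was moved. They give neither the cell line nor the sponge construct nor the kind of control. No label states separate cultures, so the spread behind each p-value is that of the libraries and may be technical. The third knockdown library, replicate 2, was not used because its values are out of step with the gene IDs, with a Spearman rank correlation across genes of 0.0173 to 0.0191 against the other libraries. The comparison therefore set knockdown replicates 1 and 3 against control replicates 1, 2 and 3.

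Values were RPKM, reads scaled by exon length and by the library's assigned reads. Assigned reads numbered 9296308 and 15198231 in the knockdown libraries and 9181567, 1948940 and 19605312 in the controls, so control replicate 2 is the least precise. All 9 hepatocyte markers checked were present in each library, at a summed 1689 to 1762 RPKM in knockdown and 1520 to 1900 RPKM in control. Single markers differed: APOB lay below all controls in both knockdown libraries, SERPINA1 and TF lay above, and the others overlapped. Of all genes tested, 13.6% lay below and 14.3% above in this way. The 7 blood and immune markers summed to 36.8 to 43.0 RPKM in knockdown and 32.6 to 41.9 RPKM in control. Most of this was CD14, at 30.6 and 36.8 RPKM in knockdown and 28.6 to 38.4 RPKM in control, and most of the rest was CD3D. CD3D lay above all controls, at 6.14 and 6.09 RPKM in knockdown and 3.08 to 4.455 RPKM in control, while PTPRC reached at most 0.0713 RPKM and MS4A1 and HBB were listed at 0 in all 5 libraries. The 6 fibroblast markers summed to 68.2 to 72.1 RPKM in knockdown and 63.25 to 83.2 RPKM in control, mostly LUM. LUM overlapped, while COL1A1, COL1A2 and DCN lay above all controls and COL3A1 and PDGFRA below. The 4 endothelial markers summed to at most 0.406 RPKM in knockdown and 0.760 RPKM in control, with KDR listed at 0 in all 5 libraries. PECAM1 lay below all controls and CDH5 above, the latter on 2 reads in each knockdown library. The part of these cell types in the results was not tested. In bulk RNA, fewer cells that make a transcript and less of it per cell cannot be told apart.

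As background, MYC, MYCN and MYCL are paralogous basic helix-loop-helix leucine zipper proteins that bind E-box DNA as dimers with MAX. MXD proteins compete for MAX and repress from the same sites, and E2F factors switch on genes for entry into S phase. MYC and E2F proteins activate transcription of MIR17HG, and microRNAs of the cluster repress E2F transcripts in turn. The cluster is overexpressed in many tumours, those of the liver among them.

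The 6 main mature microRNAs of the cluster are shown because their seeds define the sites searched in the other members. Sequences are from RefSeq (GRCh38.p14, plus strand), between chr13:91350618-91350640 for miR-17-5p and chr13:91351361-91351382 for miR-92a-3p, and capitals mark the seed, bases 2 to 8.
hsa-miR-17-5p: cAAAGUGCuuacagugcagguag
hsa-miR-20a-5p: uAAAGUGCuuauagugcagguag
hsa-miR-18a-5p: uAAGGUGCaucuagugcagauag
hsa-miR-19a-3p: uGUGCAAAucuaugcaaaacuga
hsa-miR-19b-3p: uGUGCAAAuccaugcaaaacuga
hsa-miR-92a-3p: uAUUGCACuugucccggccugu
The first 2 share 1 seed and the miR-19 pair another, so the 6 microRNAs hold 4 seeds. In GENCODE 29 each of them lies within an exon of 2 of the 3 annotated MIR17HG transcripts.

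For each of the 8 coding members, the transcript with the longest 3' UTR (GENCODE 29 on GRCh38) was searched for the sites that pair with these seeds. These 3' UTRs ran from 476 bases in MYC to 4661 in MXD1. A longer 3' UTR has more places for a match, and the shares over all 3' UTRs were not matched for length. The miR-19 site TTTGCAC was present in 3 of the 8, namely MYCN, MYCL and MXD1, against 13.6% of 19145 3' UTRs. These sites are shown because miR-19a is the microRNA the series names, with the site in capitals.
MYCN, chr2:15946118-15946146, plus strand: gtcactgccacTTTGCACattttgatttt
MYCL, chr1:39897279-39897307, minus strand: ccctttagtaaTTTGCACattttggttat
MXD1, first site, chr2:69940190-69940218, plus strand: ccagctaaagaTTTGCACtgaaatacaac
MXD1, second site, chr2:69940633-69940661, plus strand: attatttgaccTTTGCACtgtttgtctgg
MYCN and MYCL share a run of 13 bases from the start of the site, close to the start of the 3' UTR in both, at base 32 in MYCN and base 76 in MYCL. In both the site is followed by an A, the longer 8-base form. The 2 sites of MXD1 are not.

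The site of miR-17 and miR-20, GCACTTT, was found in 4 of the 8, against 21.4% of 3' UTRs. E2F1 held 2 of them, and MYCN, MXD1 and E2F3 1 each. The sites of the E2F genes are printed because this seed family is the one known to repress them.
E2F1, first site, chr20:33676328-33676356, minus strand: gggctctaactGCACTTTcggcccttttg
E2F1, second site, chr20:33675735-33675763, minus strand: ccctccaatctGCACTTTgatttgcttcc
E2F3, chr6:20492243-20492271, plus strand: agatgacaccaGCACTTTaaactctttgt
The miR-92 site GTGCAAT was present in MXD1 and E2F3, against 11% of 3' UTRs, and the miR-18 site GCACCTT in none of the 8, against 8.82%. MAX, MXD4 and MYC held none of the 4 sites in the 3' UTR searched.

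Of the cluster itself, the host transcript was the readout with reads in each library. MIR17HG (ENSG00000215417, chromosome 13 from 91347820 to 91354579 of GRCh38) had 41 and 60 reads in knockdown replicates 1 and 3 and 26, 3 and 85 reads in control replicates 1, 2 and 3. These gave 1.26 and 1.13 RPKM in knockdown and 0.811, 0.441 and 1.24 RPKM in control. Control replicate 3 lay between the knockdown libraries, and the groups overlapped. The 3 reads of control replicate 2 have an exact 95% Poisson interval of 0.0909 to 1.29 RPKM, which spans every other library's value. Such intervals cover counting error only. The difference of 0.39 on the log2(RPKM + 0.5) scale had a limma interval of -0.41 to 1.20, which rests on the spread between libraries. Neither a lower nor a higher host transcript was detected (limma adjusted p = 0.770). Without control replicate 2 the difference was 0.17.

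**Figure D1:**
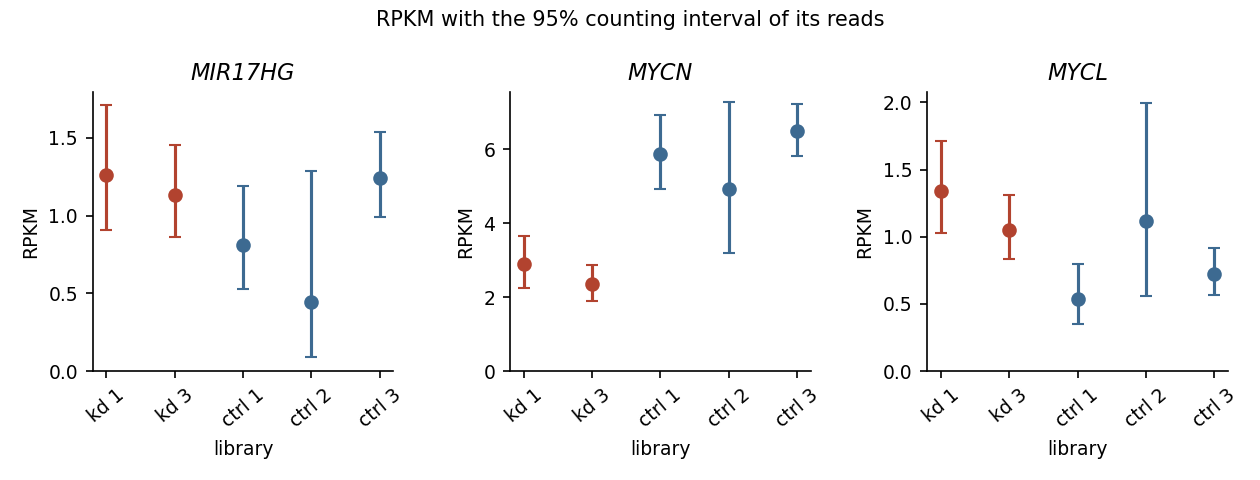
RPKM (vertical axes) of MIR17HG, MYCN and MYCL in each library, knockdown (kd) left of control (ctrl), with bars for the exact 95% Poisson interval of the reads behind each value. For MIR17HG the bar of control replicate 2 runs from 0.0909 to 1.29 RPKM, while for MYCN the knockdown bars end at 3.66 and 2.88 RPKM and those of control replicates 1 and 3 begin at 4.93 and 5.81 RPKM.

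The microRNA genes gave little beside it. MIR17, MIR18A, MIR19A, MIR20A, MIR19B1 and MIR92A1 were listed at 0 in all 5 libraries. Each lies within MIR17HG on the same strand, and how reads shared between genes were counted is not stated. A listed 0 therefore sets no bound on the level of these microRNA genes. Of the related miR-106b-25 cluster, which lies within MCM7, MIR25 had 9 and 22 reads in knockdown and 13, 7 and 24 in control. MIR106B and MIR93 had 6 reads or fewer in each library. MCM7, the host of that cluster and a helicase subunit, was at 142.6 and 153.2 RPKM in knockdown and 187.8, 175.0 and 169.8 RPKM in control, below all controls in both knockdown libraries with a log2 difference of -0.26 (SE 0.16) that did not pass (limma adjusted p = 0.724).

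Among the MYC paralogues, MYCN (ENSG00000134323, chromosome 2 from 15940564 to 15947007) was the one that separated the groups. It had 2.89 and 2.35 RPKM in knockdown replicates 1 and 3, against 5.86, 4.93 and 6.49 RPKM in control replicates 1, 2 and 3, from 70 and 93 reads and from 140, 25 and 331 reads. Each knockdown library was below each control. The counting interval of control replicate 2, 3.19 to 7.28 RPKM, overlapped that of knockdown replicate 1, 2.26 to 3.66 RPKM. The means were 2.62 ± 0.383 RPKM in knockdown (SD, n = 2) and 5.76 ± 0.784 RPKM in control (SD, n = 3), a log2 difference of -1.0 (SE 0.20, 95% interval -1.49 to -0.51).

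MYCN did not pass after adjustment over 15408 genes (limma adjusted p = 0.710). No gene passed in that fit, 0 of 15408 (0%) in either direction, while 977 (6.34%) fell under 0.05 before adjustment. On recovered reads, voom called 0 genes, and its form that weights the libraries called 3 higher and 1 lower. MYCN ranked 44 by p, and 1.11% of genes had a difference at or below its own. The antisense gene MYCNOS overlaps MYCN and had 10 and 3 reads in knockdown and 0, 0 and 15 in control. Strand use in counting is not stated, so reads of the pair cannot be told apart.

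MYC (ENSG00000136997, chromosome 8), the most abundant of the 3 paralogues, was at 14.8 and 12.9 RPKM in knockdown and 13.5, 9.75 and 13.0 RPKM in control. Knockdown replicate 3 lay below control replicates 1 and 3, and the log2 difference was 0.20 (95% interval -0.29 to 0.70, limma adjusted p = 0.800). MYCL (ENSG00000116990, chromosome 1 from 39895426 to 39902256), a paralogue first found amplified in lung cancer, was at 1.34 and 1.05 RPKM in knockdown and 0.538, 1.115 and 0.725 RPKM in control. Here control replicate 2, on 11 reads, lay between the knockdown libraries. Its log2 difference was 0.41 (95% interval -0.29 to 1.11, limma adjusted p = 0.734). The 2 paralogues with the 8-base miR-19 site thus had estimates of opposite sign, and the interval of MYCL includes 0.

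Ratios within a library do not depend on its scaling. MYCN over MYC was 0.196 and 0.182 in knockdown, against 0.434, 0.506 and 0.499 in control. MYCN made up 15.2% and 14.4% of the summed RPKM of the 3 paralogues in knockdown, against 29.45%, 31.2% and 32.1% in control. Both measures were lower in each knockdown library than in each control. The sum itself overlapped, at 19.0 and 16.3 RPKM in knockdown and 19.9, 15.8 and 20.2 RPKM in control. No test was made of these ratios, which rest on the same reads as the levels.

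**Figure D2:**
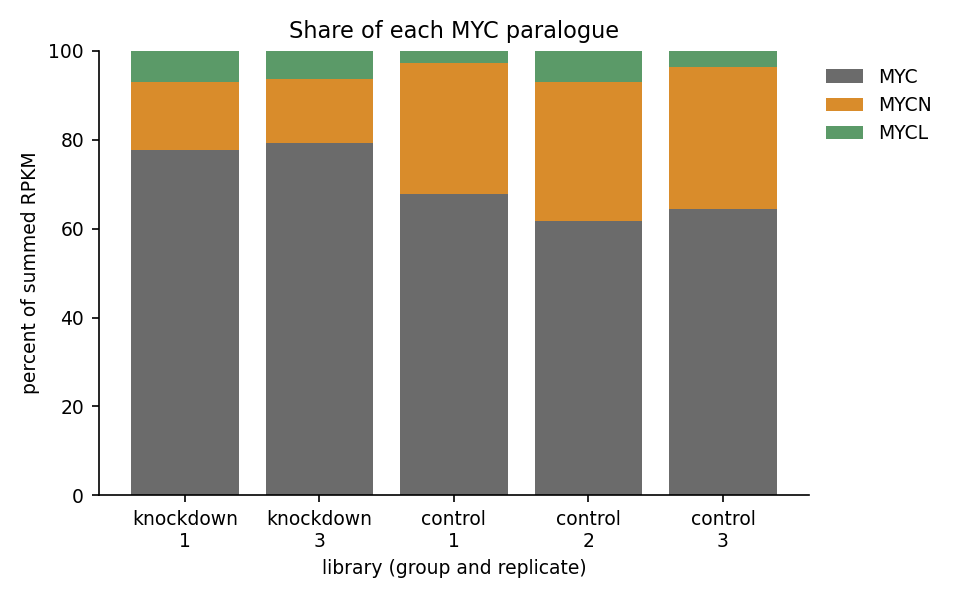
Percent of the summed RPKM of MYC, MYCN and MYCL taken by each (vertical axis) in each library (horizontal axis), knockdown left of control. The MYCN band is 15.2% and 14.4% in the knockdown libraries and 29.45% to 32.1% in the controls.

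MAX (ENSG00000125952, chromosome 14 from 65006174 to 65102695), the shared dimer partner, was at 3.96 and 5.035 RPKM in knockdown and 4.11, 4.17 and 3.70 RPKM in control. The groups overlapped, and the log2 difference was 0.15 (95% interval -0.31 to 0.60, limma adjusted p = 0.838), or -0.01 without knockdown replicate 3. FNTB overlaps MAX on the opposite strand and was at 1.83 and 1.77 RPKM in knockdown and 1.77, 2.34 and 1.49 RPKM in control.

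Of the MXD repressors, MXD4 (ENSG00000123933, chromosome 4 from 2247432 to 2262294) was at 18.1 and 19.0 RPKM in knockdown, against 14.1, 8.29 and 13.5 RPKM in control, on 114 to 2034 reads. Both knockdown libraries lay above all 3 controls, and the mean was 1.55 times that of control. The log2 difference was 0.65 (SE 0.26, 95% interval -0.01 to 1.30, limma adjusted p = 0.710), and it was 0.41 without control replicate 2, the lowest library. MXD1 (ENSG00000059728, chromosome 2 from 69897688 to 69942945), which holds 2 miR-19 sites, was at 4.44 and 3.80 RPKM in knockdown and 3.155, 3.64 and 4.63 RPKM in control. Those values overlapped, with a log2 difference of 0.11 (95% interval -0.42 to 0.65, limma adjusted p = 0.899). Its span overlaps SNRNP27 on the same strand, at 7.38 and 8.07 RPKM in knockdown and 8.62, 7.44 and 14.2 RPKM in control, so its reads could be split between them. MXD4 over MXD1 was 4.07 and 4.99 in knockdown and 4.455, 2.28 and 2.92 in control, so this ratio overlapped between the groups.

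E2F1 (ENSG00000101412, chromosome 20 from 33675683 to 33686404), an activator E2F and the most abundant member, was at 31.2 and 32.9 RPKM in knockdown, against 42.95, 45.1 and 33.6 RPKM in control. Both knockdown libraries lay below all controls, though control replicate 3 was within 1 RPKM of knockdown replicate 3. The log2 difference was -0.32 (SE 0.18, 95% interval -0.77 to 0.13, limma adjusted p = 0.718), and -0.63 with trends against exon length and GC content removed. E2F3 (ENSG00000112242, chromosome 6 from 20401906 to 20493715), a second activator, was at 2.58 and 2.19 RPKM in knockdown and 2.26, 3.97 and 4.32 RPKM in control. Control replicate 1 lay between the knockdown libraries, and the log2 difference was -0.44 (95% interval -1.18 to 0.30, limma adjusted p = 0.734).

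Counted together, 3 of the 9 members had groups that did not overlap, 1 higher and 2 lower in knockdown. Over all genes tested the shares were 14.3% higher and 13.6% lower. Before adjustment, 1 member was lower at p under 0.05 in limma, beside 2.54% of all genes, and 0 were higher, beside 3.8%. Their median difference was 0.15, beside 0.00 for all genes tested.

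**Figure D3:**
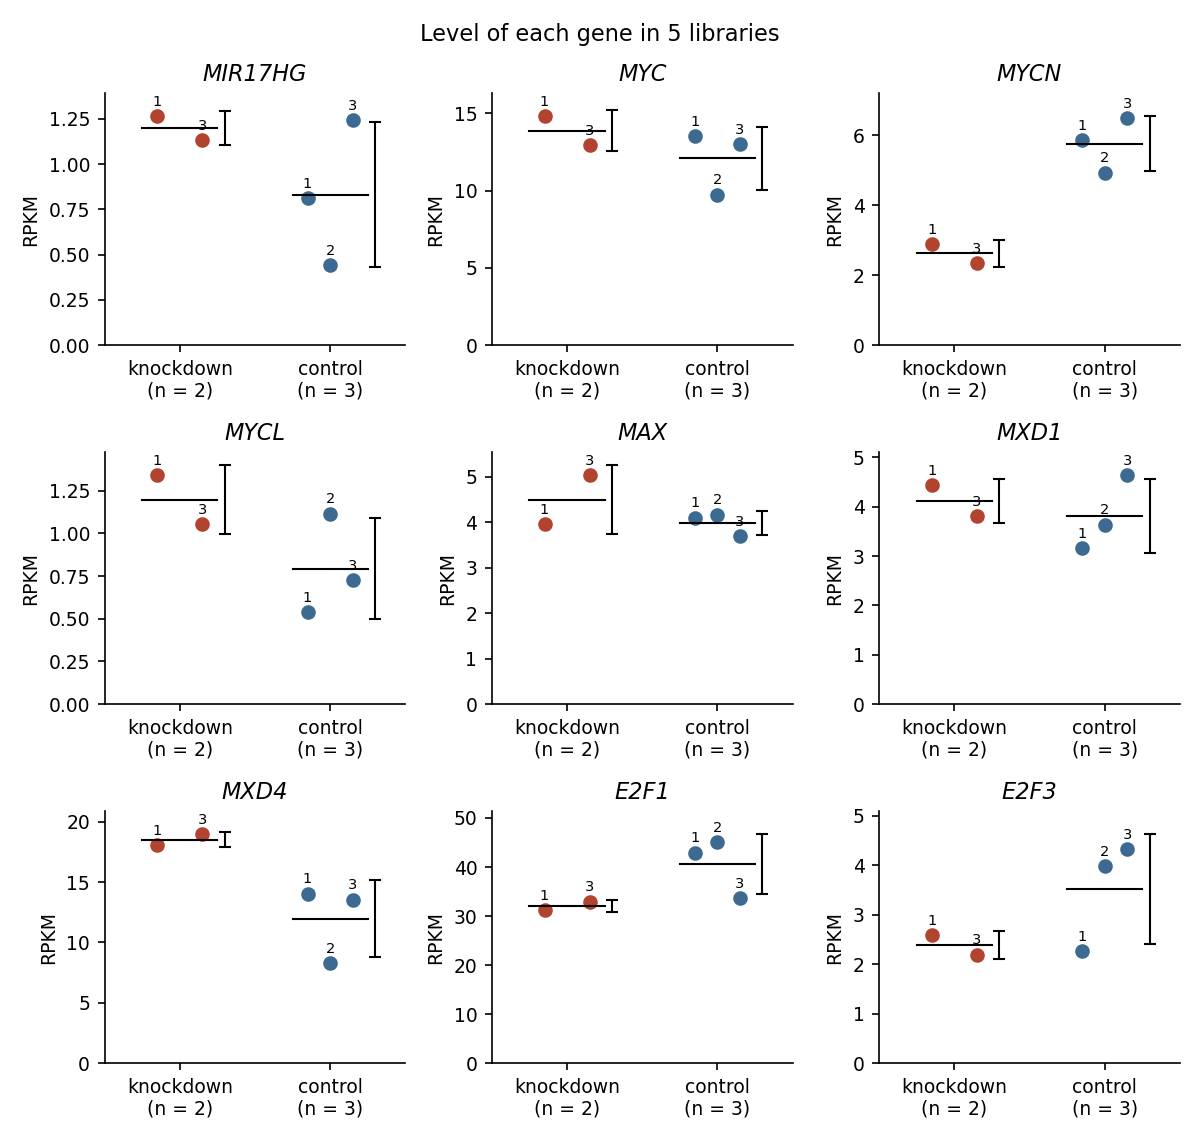
RPKM (vertical axes, each from 0) of the 9 genes in knockdown replicates 1 and 3, left, and control replicates 1, 2 and 3, right; points are libraries with their replicate number, lines are means and bars are 1 SD. MYCN and E2F1 lie below all controls in both knockdown libraries, MXD4 lies above them, and the other 6 genes overlap.

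**Figure D4:**
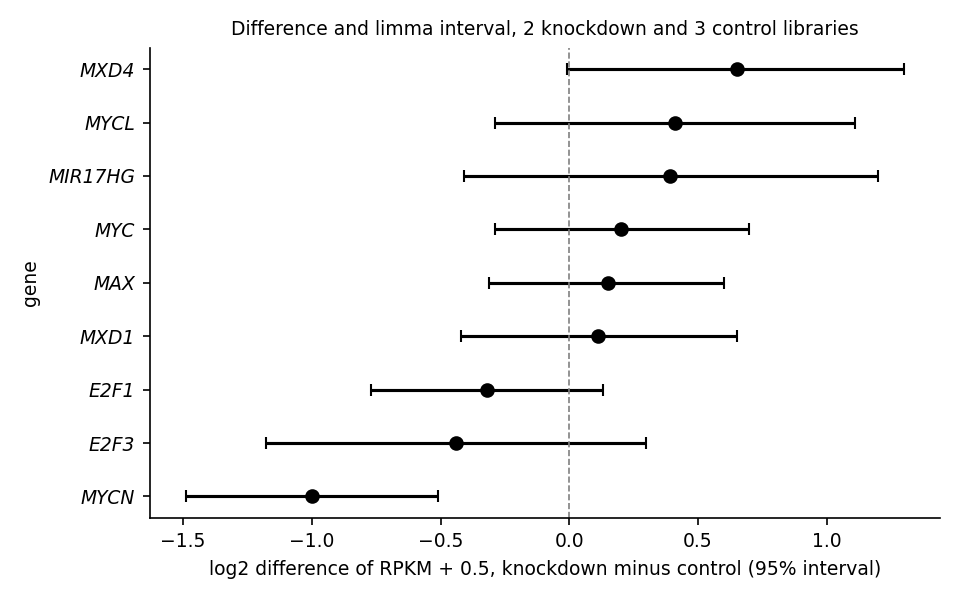
Log2 difference of RPKM + 0.5, knockdown minus control (horizontal axis), of each gene (vertical axis) with its 95% limma interval, not adjusted for the number of genes. The interval of MYCN, -1.49 to -0.51, is the single one without 0, and that of MXD4 starts at -0.01.

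By level per exon length, the order in knockdown was E2F1, MXD4, MYC, MAX, MXD1, MYCN, E2F3, MIR17HG and MYCL, and in control E2F1, MYC, MXD4, MYCN, MAX, MXD1, E2F3, MIR17HG and MYCL. MYCN stood in place 6 in knockdown and in place 4 in control. Neighbours whose libraries overlapped were MAX and MXD1, MYCN and E2F3, and MIR17HG and MYCL in knockdown. In control they were MYC and MXD4, MAX and MXD1, MXD1 and E2F3, and MIR17HG and MYCL.

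Promoters of the members were searched for the E-box CACGTG and for the E2F motif as TTTCCCGC, TTTCGCGC, TTTGCCGC or TTTGGCGC on both strands. The windows span 250 bases before to 50 after each RefSeq start (GRCh38.p14), and 8 of the 9 members had 1 or 2 windows, with MYC not searched. An E-box was found in MXD4 and at the downstream start of E2F3, against 7.26% of all 35116 windows. E2F motifs were found in MYCN, E2F1 and the upstream start of E2F3, against 3.31% of windows. The matches are printed in the direction of the gene with the motif in capitals, since they include the 3 members whose groups did not overlap.
MXD4, chr4:2262334-2262355, minus strand: cgggccacCACGTGctgttgct
E2F3, chr6:20403526-20403547, plus strand: gtttcgcaCACGTGcgcgcagg
MYCN, chr2:15940366-15940389, plus strand: aagtggctTTTGGCGCgaaagcct
E2F1, chr20:33686403-33686426, minus strand: gctctttcGCGGCAAAaaggattt
E2F1, chr20:33686390-33686413, minus strand: aaaaaggaTTTGGCGCgtaaaagt
E2F3, chr6:20401818-20401841, plus strand: aaaagccgGCGGGAAAtccgagtt
In MYCN a second match on the opposite strand overlaps the one shown. These letters were not in the windows of MIR17HG, MYCL, MAX or MXD1. The MIR17HG window, chr13:91347437-91347736, ends before the GENCODE start at 91347820. That of MXD1, chr2:69914859-69915158, lies inside the GENCODE span. Sequence at the GENCODE starts of these 2 genes was thus not searched. A match describes the sequence and was not tied to binding here.

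Genes around the factors were counted from lists, and 0 members of any list passed limma over all genes. The lists were chosen with earlier results of these data known, so their counts are a description. Genes within a list, and those of related lists, can rise and fall together in a library, so they are not independent observations. Of all genes tested, 50% were above 0 and 50% below. The other MAX and MLX network genes had 5 of 7 tested above 0, with a median log2 difference of 0.32, or 0.17 without knockdown replicate 1. MXI1, an MXD-type repressor, was at 10.0 and 9.90 RPKM in knockdown, against 6.41, 5.79 and 7.45 RPKM in control, above all 3 controls in both. MGA, a large MAX partner that represses, was at 2.83 and 2.14 RPKM in knockdown, against 3.10, 4.45 and 4.31 RPKM in control, below all 3. MLXIPL, the glucose-responsive factor ChREBP, was at 3.55 and 4.455 RPKM in knockdown, against 2.895, 3.09 and 2.67 RPKM in control. The log2 differences of these 3 were 0.58 (SE 0.17), -0.57 (SE 0.23) and 0.41 (SE 0.19), each at a limma adjusted p of 0.710.

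MYC cofactors and turnover genes had 12 of 18 below 0, with a median of -0.15, or -0.03 without control replicate 3. TRRAP, a scaffold of histone acetylase complexes that MYC recruits, was at 6.59 and 3.99 RPKM in knockdown, against 7.48, 10.9 and 8.73 RPKM in control. HUWE1, a ubiquitin ligase, was at 26.1 and 16.15 RPKM in knockdown, against 26.5, 47.15 and 28.9 RPKM in control. For both genes the libraries did not overlap, although knockdown replicate 1 came close to control replicate 1. Both are long, with exons of 19972 bases in TRRAP and 17380 in HUWE1, and the part of length in their differences was not tested. With trends against exon length and GC content removed the list median was -0.14. MYCBP2, another ubiquitin ligase that binds MYC, was at 1.24 and 0.891 RPKM in knockdown, against 1.36, 1.67 and 1.535 RPKM in control. FBXW7, the ligase that degrades MYC proteins, was at 1.22 and 0.990 RPKM in knockdown and 1.31, 1.25 and 1.66 RPKM in control, with a log2 difference of -0.24 (SE 0.22).

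E2F partners and pocket proteins had 10 of 11 below 0, with a median of -0.40, and 7 of the 11 had both knockdown libraries below all controls, beside 13.6% of all genes. At an unadjusted p under 0.05 in limma 3 were lower, beside 2.54% of all genes. E2F8, a repressor E2F, was at 3.90 and 3.04 RPKM in knockdown, against 5.58, 5.45 and 7.31 RPKM in control, a log2 difference of -0.73 (SE 0.21). RBL1, the pocket protein p107, differed by -0.57 (SE 0.21), and TFDP1, the dimer partner of E2F proteins, by -0.40 (SE 0.16), each at a limma adjusted p of 0.710. Control replicate 3 was the highest library of this list, with a median centred value of 0.41, beside 0.02 and -0.01 in control replicates 1 and 2 and -0.17 and -0.26 in the knockdown libraries. Without it the median difference was -0.20.

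E2F target genes had 22 of 23 below 0, with a median of -0.40, and 13 had both knockdown libraries below all controls, beside 13.6% of all genes. At an unadjusted p under 0.05 in limma 9 were lower, beside 2.54% of all genes, and 0 higher, beside 3.8%. Of the list, 0 passed after adjustment (lowest limma adjusted p = 0.710). Control replicate 3 was the highest library here too, with a median centred value of 0.36, beside 0.15 and 0.05 in control replicates 1 and 2. The knockdown libraries were at -0.21 and -0.29. Without control replicate 3 the median difference was -0.30. CDC25A, a phosphatase that activates cyclin-dependent kinases, was at 6.95 and 6.79 RPKM in knockdown, against 10.1, 9.10 and 11.8 RPKM in control. Of the 3 genes with the smallest p, MCM6, MCM2 and CDC6, which build or load the replicative helicase, MCM2 had the largest difference, -0.75 (SE 0.21), with 27.45 and 19.9 RPKM in knockdown, against 36.7, 46.3 and 36.7 RPKM in control. CDT1, which loads the helicase with CDC6, was the one member above 0, at 30.7 and 40.4 RPKM in knockdown, against 28.5, 28.0 and 27.8 RPKM in control. CDC25A and CDT1 were chosen after their values were seen.

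Of 19 MYC-activated target genes tested, 13 were below 0 with a median of -0.18. Leaving out control replicate 2 gave -0.35, and leaving out control replicate 3 or knockdown replicate 1 gave -0.11. Both knockdown libraries lay below all controls for 6 of the 19, and above for 2, beside 13.6% and 14.3% of all genes. The 6 were RRS1, ODC1, CAD, NCL, POLR1B and PPAT. The 2 were FBL and LDHA, both named after their values were seen. CCND2 was listed at 0 in all 5 libraries. RRS1, a ribosome assembly factor, was at 12.3 and 15.1 RPKM in knockdown, against 20.7, 22.9 and 21.4 RPKM in control. ODC1, the first enzyme of polyamine synthesis and a classical MYC target, was at 45.0 and 45.9 RPKM in knockdown, against 78.3, 59.1 and 70.25 RPKM in control. CAD, which starts pyrimidine synthesis, was at 7.01 and 5.39 RPKM in knockdown, against 9.87, 10.7 and 9.24 RPKM in control. All 3 lay below every control, with log2 differences of -0.65 (SE 0.16), -0.59 (SE 0.17) and -0.65 (SE 0.18). FBL, a nucleolar methyltransferase, lay above every control at 369.0 and 426.1 RPKM in knockdown, against 311.5, 247.9 and 205.7 RPKM in control, a log2 difference of 0.66 (SE 0.24). LDHA, the lactate dehydrogenase subunit that low oxygen also induces, was at 570.6 and 590.5 RPKM in knockdown, against 447.1, 429.2 and 408.7 RPKM in control.

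The 4 MYC-repressed genes were above 0, with a median of 0.44. NDRG1, which MYCN and MYC repress and low oxygen induces, was at 71.6 and 62.0 RPKM in knockdown, against 37.9, 30.6 and 36.65 RPKM in control, a log2 difference of 0.92 (SE 0.17). GADD45A, a growth arrest gene, was at 29.5 and 36.1 RPKM in knockdown, against 24.2, 22.3 and 24.5 RPKM in control. CDKN1A, the cell cycle inhibitor p21, overlapped, at 14.1 and 15.7 RPKM in knockdown and 11.4, 8.24 and 14.4 RPKM in control. None passed over all genes (lowest limma adjusted p = 0.710).

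Published targets of the cluster were divided, with 6 of 12 above 0 and 6 below and a median of -0.10. The sign of this median was not stable, at 0.06 without knockdown replicate 3, 0.04 without control replicate 3 and -0.19 without control replicate 1. TGFBR2, a TGF-beta receptor, differed by -0.56 (SE 0.18) and THBS1, an inhibitor of vessel growth, by -0.75 (SE 0.27). SOCS1, a cytokine signalling inhibitor, was at 2.52 and 3.15 RPKM in knockdown, against 2.12, 1.14 and 0.966 RPKM in control, a log2 difference of 0.84 (SE 0.31). Its values rest on few reads, 42 and 86 in knockdown and 35, 4 and 34 in control. For these 3 the groups did not overlap and the limma adjusted p was 0.710. Of the 12, 4 had both knockdown libraries below all controls and 1 above, beside 13.6% and 14.3% of all genes.

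**Figure D5:**
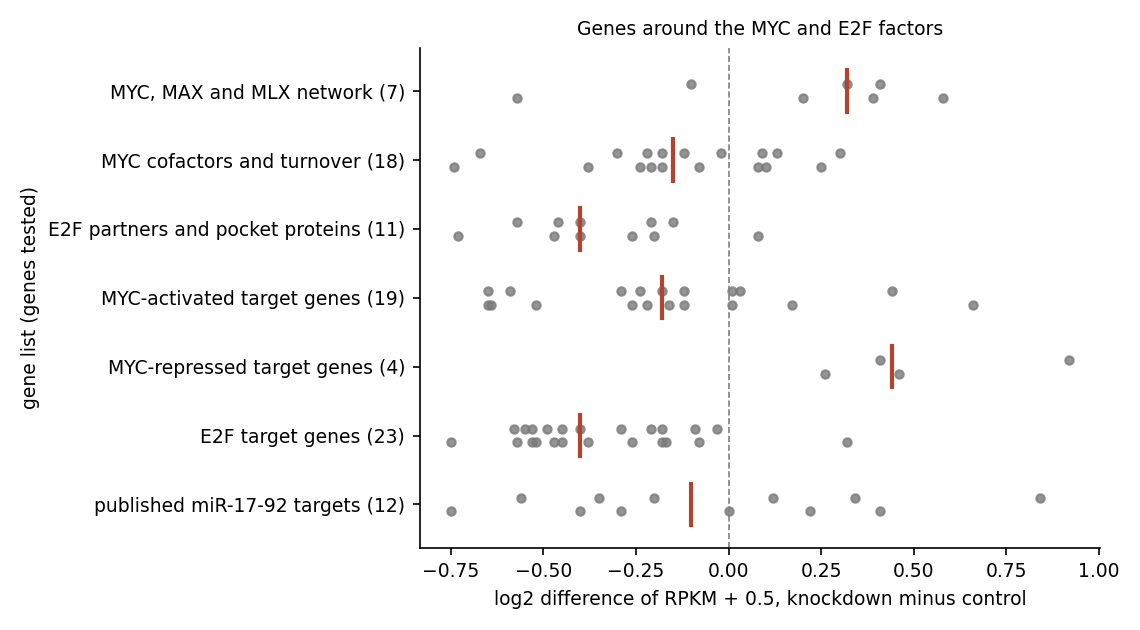
Log2 difference of RPKM + 0.5, knockdown minus control (horizontal axis), of the tested genes of 7 lists (vertical axis, number tested in brackets); each point is a gene and the bar is the list's median. Medians are -0.40 for E2F partners and for E2F targets, -0.18 for MYC-activated and 0.44 for MYC-repressed genes.

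Genes with the profile most like a member's were ranked by root mean square distance between log2 values over the 5 libraries, each centred on its own mean. For MYCN the nearest were GPAM (0.0895), which starts glycerolipid synthesis, the DNA repair helicase BRIP1 (0.111), DUSP6 (0.118), a phosphatase that turns off ERK kinases, HMGCS1 (0.130) of cholesterol synthesis and A2M (0.144), a secreted protease inhibitor, against a median distance of 0.564 over all genes. Each of the 5 lay below all controls in both knockdown libraries, as the measure selects. For MIR17HG they were ZNF700 (0.0296), a zinc finger gene, BIRC2 (0.0423), an inhibitor of apoptosis, CNOT8 (0.0433), a deadenylase subunit, HOXA-AS2 (0.0478) and PPP1R3G (0.0483), against a median of 0.364. Control replicate 2 was the lowest library for all 5. MYC and MXD4 were the members nearest to MIR17HG, at 0.199 each, but ranked 1438 and 1440 among all genes tested. MYCN was the farthest member, at 0.705. Each distance to MIR17HG includes control replicate 2, where MIR17HG had 3 reads.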

How the data were processed

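RNA of 6 libraries was sequenced, and the values of all of them stand in 1 table. Per the labels' description field, the authors deposited RPKM. HISAT2 and GRCh38 are named in the submitters' processing notes. How reads were counted, with which annotation and whether by strand, is not given in the sources used here. GENCODE 29 matched all 58676 gene IDs and supplied symbols, exon lengths and 3' UTRs.

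Multiplied by exon length, 100% of RPKM values above 0 were whole multiples of the worth of 1 read in 5 libraries (tolerance 0.002 of a read), and 0.42% in knockdown replicate 2, which was left out. The test was limma 3.58.1 in R 4.3.3 (lmFit, eBayes with a trend, two-sided) on log2(RPKM + 0.5) without covariates. It covered the 15408 genes that reached 0.5 RPKM in 3 or more of the 5 libraries, with Benjamini-Hochberg adjustment and a threshold of 0.05. Fold changes on this scale understate changes of low genes. Counting intervals are exact Poisson, at 95%. Lists were described by counts and medians. The code was tested on simulated data.

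Genes named by rule are the 9 members, the 3 of smallest p in each list, and the 5 nearest profiles to MIR17HG and to MYCN. FBXW7, FBL, LDHA, CDC25A, CDT1 and MCM7 were added after their values were seen. Genes that overlap a member, cell type markers and list members at 0 are named where a value touches them, also after their values were seen. Members and lists were chosen with earlier results of these data known. Alternatives were pseudocounts, filters, scalings, no trend, the replicate block, leaving out each library, voom on recovered reads, and removal of length and GC trends.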

Additional observations from a re-analysis of the deposited data

How the results depend on the processing

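Under 17 alternatives no member passed an adjusted p of 0.05, and no member's estimate changed sign except that of MAX, at -0.01 without knockdown replicate 3. MYCN ranged from -1.22 to -0.88, with a limma adjusted p from 0.0974 (voom with sample weights) to 0.9998 (without knockdown replicate 3), and MXD4 from 0.41 to 0.78. With voom and sample weights MYCL was at 0.94 and E2F3 at -0.16, and MXD1 was at 0.00 without control replicate 1. Leaving out each library in turn gave 0.17 to 0.61 for MIR17HG, 0.06 to 0.30 for MYC, 0.26 to 0.58 for MYCL, -0.01 to 0.30 for MAX, 0.00 to 0.25 for MXD1, -0.45 to -0.24 for E2F1 and -0.69 to -0.29 for E2F3. Genes called over the whole table numbered 3 higher and 1 lower with voom and sample weights. With the replicate block, which leaves 1 residual degree of freedom, they numbered 33 higher and 7 lower, and MYCN was at -1.10 (adjusted p = 0.193). No label ties same-numbered libraries together. Their deviations correlated at -0.17 for replicate 1 and 0.02 for replicate 3, but with 2 knockdown libraries the deviations of one mirror those of the other, so these values do not settle whether the numbers pair the libraries. List medians moved by more than the spread between libraries in 3 cases as libraries were left out: to 0.17 without knockdown replicate 1 for the MAX and MLX network (0.17 to 0.36 over all), and without control replicate 3 to -0.03 for MYC cofactors (-0.17 to -0.03) and -0.20 for E2F partners (-0.46 to -0.20). The median of published targets changed sign, from -0.19 to 0.06 as libraries were left out, at 0.04 with length and GC trends removed and at 0.02 with voom and sample weights. That of MYC-activated genes ran from -0.35 to -0.11 as libraries were left out. The cause was not tested. Among the members, MIR17HG and MYCL had the fewest reads in control replicate 2, at 3 and 11.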
